A study of Rattus norvegicus with 6 samples.

Results

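DNA methylation writers and erasers were examined as a family of 7 genes, chosen by symbol: the maintenance methyltransferase Dnmt1 and its partner Uhrf1, the de novo methyltransferases Dnmt3a and Dnmt3b, and the dioxygenases Tet1, Tet2 and Tet3. All 7 had 1 row each among the 18930 genes of the deposited count table. RNA came from NRK-52E, an established epithelial cell line from the rat kidney, labelled wild type in both groups. There were 3 samples of cells given vehicle (labelled Control) and 3 of cells exposed to streptozotocin (STZ), a sugar-linked alkylating drug, at 10 mM for 24 h. STZ attaches methyl groups to DNA bases directly, which is distinct from the enzymatic methylation of cytosine that these genes control. Whether the 3 samples of a group were separate cultures is not stated in the sources used here, so the errors below measure the spread between these samples. All cells were of 1 line, but RNA was not read cell by cell. A change in RNA per cell and a change in the mix of cell states therefore cannot be told apart.

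Cytosine methylation at CpG sites is copied after each round of DNA replication. Uhrf1 recognises the newly made, half-methylated site and the histone beside it, and recruits Dnmt1, which methylates the new strand. Dnmt3a and Dnmt3b place methyl groups on sites that had none. TET enzymes oxidise 5-methylcytosine, using oxygen, iron and 2-oxoglutarate, to bases that are lost at replication or cut out by DNA glycosylases. In dividing cells Dnmt1 and Uhrf1 are known as genes of the S phase, under control of E2F transcription factors.

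Levels are given as CPM (counts scaled to a common library total), after scaling of the libraries by edgeR's TMM method, and a log2 fold change is STZ against Control from edgeR's quasi-likelihood test over all genes that passed the filter on low counts. Total counts ranged from 10430924 to 12737131 in Control and from 11658253 to 15191349 in STZ. Of 11870 genes tested, 6046 (50.9%) had an adjusted p-value under 0.05, with 25.9% higher and 25.1% lower, and 400 (3.37%) also had an absolute log2 fold change over 1. Because so many genes passed on the adjusted p-value alone, the size of each change is given beside every call. The labelled cell type was checked against marker lists. Of 5 kidney epithelial markers with counts, 2 were tested, and they moved in opposite directions: the keratin gene Krt8 rose from 1149 ± 40.7 to 1604 ± 8.05 CPM and the adhesion gene Cdh1 fell from 2.58 ± 0.524 to 1.64 ± 0.553 CPM (SD, n = 3; adjusted p = 1.82e-15 and 0.0296), with overlapping groups for Cdh1. Krt18, Cdh16 and Pax8 had at most 4 reads in a sample. Of 6 proximal tubule markers only the water channel gene Aqp1 was tested, and it fell from 13.1 ± 3.68 to 5.43 ± 0.663 CPM, a log2 fold change of -1.25 (adjusted p = 9.36e-09). Lrp2, Slc34a1 and Slc2a2 had at most 4 reads, Slc5a2 at most 7 and Cubn at most 10. Summed fibroblast markers, nearly all of them Vim, were 2004 to 2205 CPM in Control and 1893 to 1926 CPM in STZ, above the kidney epithelial sums of 1106 to 1180 and 1599 to 1615 CPM. All 4 fibroblast markers tested fell, with Col3a1 at -1.35 (adjusted p = 2.54e-18), while Col1a2 and Pdgfra had at most 4 reads. Summed endothelial markers were 0.455 to 0.754 CPM in Control and 0.800 to 1.13 in STZ, and summed leukocyte markers 1.46 to 2.17 and 2.26 to 2.84 CPM. The part of these marker differences in the results below was not tested.

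Of the 7 genes, 6 passed the filter and 4 of these were lower in STZ with an adjusted p-value under 0.05: Uhrf1, Dnmt1, Dnmt3b and Tet3. None was higher, at the adjusted or at an unadjusted p-value under 0.05 in edgeR, or by DESeq2 or limma-voom. None passed the fold-change threshold as well (0 by edgeR, also at an unadjusted p-value under 0.05, by glmTreat, DESeq2 and limma-voom). Over all genes tested, 25.1% were lower, 25.9% were higher and 3.37% passed both thresholds. The 0 of 6 past both thresholds is therefore near the share over all genes. The median log2 fold change of the 6 genes was -0.17, against -0.0055 over all genes tested. In the same 4 genes the groups did not overlap in CPM, which was the case for 56.3% of all genes tested. Tet1 had too few reads to pass the filter.

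**Figure D1:**
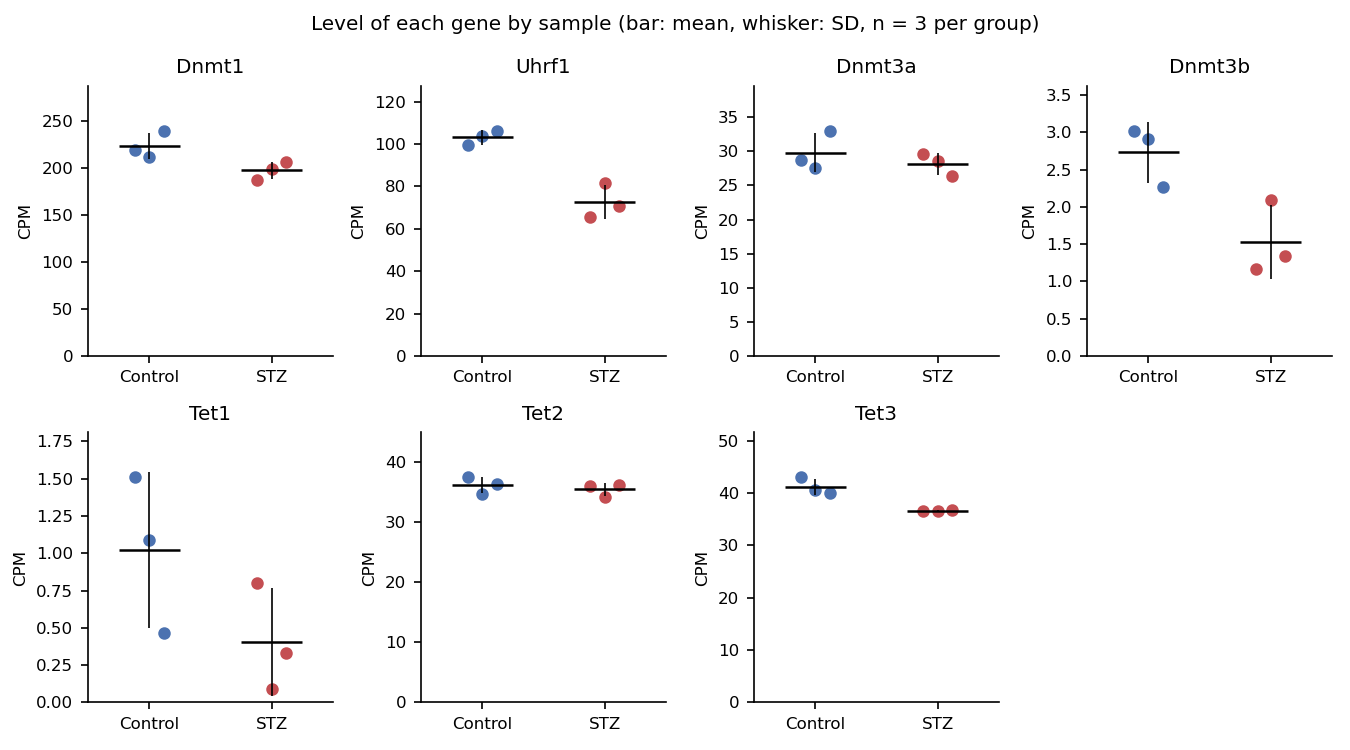
Level of each of the 7 genes in CPM (vertical axis, from 0, with its own scale in each panel) in the 3 Control and 3 STZ samples; points are samples, bars are means and whiskers are SD. The STZ samples of Uhrf1 lie between 65.6 and 81.4 CPM, all below the Control samples, whereas those of Tet2 lie among the Control samples.

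To show what the changed maintenance pair shares beyond its levels, the promoter windows of these genes were read from RefSeq (build GRCr8, 250 bases before to 50 bases after each start site). Windows were found for 6 of the 7 genes, all but Dnmt3b. There were 13 windows in all, because several genes have more than 1 start site. Each was searched on both strands for TTTCCCGC, TTTGGCGC and TTTCGCGC, which are forms of the E2F site, for the CCAAT box CCAAT and for the GC box GGGCGG. An E2F form was present in 2 of the 13 windows, 1 of Dnmt1 and 1 of the 3 of Uhrf1, while 1.72% of all 33469 windows held at least 1. Each form contains CG, and that share was not limited to windows with a like number of CpG sites. Tet3, also called lower in STZ, had none in any of its windows. The 4 windows below are the 2 with an E2F form and, for comparison, the single windows of Dnmt3a and Tet2. Dnmt3a and Tet2 were picked because their RNA level differed least between the groups. The part of E2F sites in any change was not tested. Capitals mark the E2F forms, read on either strand.
Dnmt1, chr8:27762792-27763091, minus strand: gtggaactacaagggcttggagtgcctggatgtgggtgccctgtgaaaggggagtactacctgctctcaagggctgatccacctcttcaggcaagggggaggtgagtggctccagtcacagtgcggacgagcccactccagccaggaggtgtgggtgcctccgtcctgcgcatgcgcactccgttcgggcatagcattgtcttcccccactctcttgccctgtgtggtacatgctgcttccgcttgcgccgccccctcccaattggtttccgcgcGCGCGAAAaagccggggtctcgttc
Uhrf1, chr9:1222936-1223235, plus strand: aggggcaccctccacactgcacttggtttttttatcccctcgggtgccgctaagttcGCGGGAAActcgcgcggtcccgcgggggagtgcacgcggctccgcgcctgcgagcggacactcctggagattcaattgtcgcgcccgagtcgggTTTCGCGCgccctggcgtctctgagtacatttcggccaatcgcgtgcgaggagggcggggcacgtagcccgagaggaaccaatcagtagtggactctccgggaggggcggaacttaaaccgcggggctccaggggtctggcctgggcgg
Dnmt3a, chr6:32598352-32598651, plus strand: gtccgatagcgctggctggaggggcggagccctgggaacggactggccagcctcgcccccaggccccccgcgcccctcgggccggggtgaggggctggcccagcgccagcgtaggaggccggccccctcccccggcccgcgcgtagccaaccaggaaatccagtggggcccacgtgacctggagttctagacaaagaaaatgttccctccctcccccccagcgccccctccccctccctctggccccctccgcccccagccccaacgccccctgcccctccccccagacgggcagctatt
Tet2, chr2:224746137-224746436, minus strand: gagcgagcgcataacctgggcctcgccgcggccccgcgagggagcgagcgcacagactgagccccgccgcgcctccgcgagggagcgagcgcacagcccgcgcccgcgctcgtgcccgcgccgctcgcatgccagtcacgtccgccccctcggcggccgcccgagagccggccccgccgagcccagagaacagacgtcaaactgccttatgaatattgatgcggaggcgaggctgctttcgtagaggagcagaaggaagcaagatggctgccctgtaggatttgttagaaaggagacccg

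In the window of Dnmt1 the capitals are TTTCGCGC read on the opposite strand, from base 26 after the start site. In that of Uhrf1 they are TTTCCCGC on the opposite strand from base 193 and TTTCGCGC on the gene strand from base 99 before the start site. Alone, TTTCCCGC was found in 0.974% and TTTCGCGC in 0.326% of all windows. Both windows also held 2 matches to the CCAAT box. In Dnmt1 these overlap in the palindrome ccaattgg, with 1 match on each strand, whereas in Uhrf1 they are separate. The windows held between 1 and 3 GC boxes. At least 1 CCAAT box was found in 37.5% of all windows and at least 1 GC box in 33.1%. Dnmt3a and Tet2 held 2 GC boxes each and no CCAAT box. The Uhrf1 window had 35 CpG sites and that of Tet2 had 39, whereas the Dnmt1 window had 17 and the Dnmt3a window 21, against a median of 7 over all windows. These are matches of letters in windows of another genome build than the one used for counting, and binding was not measured.

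Uhrf1, the reader that brings Dnmt1 to replicated DNA, showed the firmest change of the family. It had 99.4, 104 and 106 CPM in Control replicates 1, 2 and 3, and 65.6, 81.4 and 70.8 CPM in STZ replicates 1, 2 and 3. The highest STZ sample therefore remained below the lowest Control sample, although STZ replicate 2 stood nearer to Control than the other two did. The mean fell from 103 ± 3.49 to 72.6 ± 8.04 CPM (SD, n = 3), to 70.4% of Control, with a log2 fold change of -0.51 (standard error 0.055, 95% confidence interval -0.63 to -0.40, adjusted p = 1.89e-10). Of all genes tested, 6.08% had a lower log2 fold change. The spread in STZ, a coefficient of variation of 11.1%, was wider than the 3.05% that counting alone gives at its mean of 1077 reads per sample. In the GRCr8 annotation the span of Uhrf1 overlaps Arrdc5, and it is not given whether counting used strand, so this pair may share reads.

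Dnmt1, the enzyme that copies methylation, changed less. Its levels were 219, 212 and 239 CPM in the Control replicates and 187, 199 and 206 CPM in the STZ replicates. The groups did not overlap, but the highest STZ and the lowest Control sample differed by less than the range within either group. The mean was 223 ± 14.2 CPM in Control and 197 ± 9.41 in STZ (SD, n = 3), 88.3% of Control, a log2 fold change of -0.18 (standard error 0.044, 95% confidence interval -0.27 to -0.091, adjusted p = 0.000663). Of all genes tested, 26.4% had a lower log2 fold change than Dnmt1.

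Because a ratio of reads within a sample does not depend on library scaling, Uhrf1 was also set against Dnmt1. Uhrf1 had 0.454, 0.491 and 0.444 reads per Dnmt1 read in the Control samples and 0.351, 0.410 and 0.344 in the STZ samples. All STZ samples were below all Control samples, with means of 0.368 ± 0.0363 in STZ and 0.463 ± 0.0246 in Control (SD, n = 3). Uhrf1 thus fell further than Dnmt1 in point estimate, and the difference between the 2 genes was not tested. Gene lengths differ and cancel only between samples, so such a ratio compares samples and not the amounts of the 2 RNAs.

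Uhrf2, the paralog of Uhrf1 that does not take its place in maintenance, moved the other way. It was named after its values were seen. It had 51.0, 51.6 and 52.4 CPM in Control and 59.8, 57.2 and 55.8 in STZ, with no overlap, and an adjusted p-value of 0.019 at a log2 fold change of 0.16 ± 0.056 (standard error). Uhrf1 reads per Uhrf2 read were 2.0 ± 0.0426 in Control and 1.26 ± 0.164 in STZ (SD, n = 3).

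The maintenance pair was then compared with the replicative helicase, Mcm2 to Mcm7, which unwinds DNA in the same phase of the cell cycle. The summed level of these 6 genes was 1332 ± 58.9 CPM in Control and 1132 ± 15.1 in STZ (SD, n = 3), 85.0% of Control. Dnmt1 had 0.168 ± 0.00842 reads per helicase read in Control and 0.174 ± 0.00941 in STZ, and these groups overlapped. Uhrf1 had 0.0775 ± 0.000826 reads per helicase read in Control and 0.0641 ± 0.00649 in STZ, without overlap. The sum covers genes that differed among themselves, with log2 fold changes of -0.50 for Mcm6, -0.45 for Mcm7, -0.25 for Mcm2, -0.16 for Mcm4 and -0.12 for Mcm5, and 0.0023 for Mcm3, which did not pass the test (adjusted p = 0.971). Uhrf1 at -0.51 was thus close to Mcm6, and Dnmt1 at -0.18 close to Mcm4. The part of cell-cycle state in either was not tested.

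**Figure D2:**
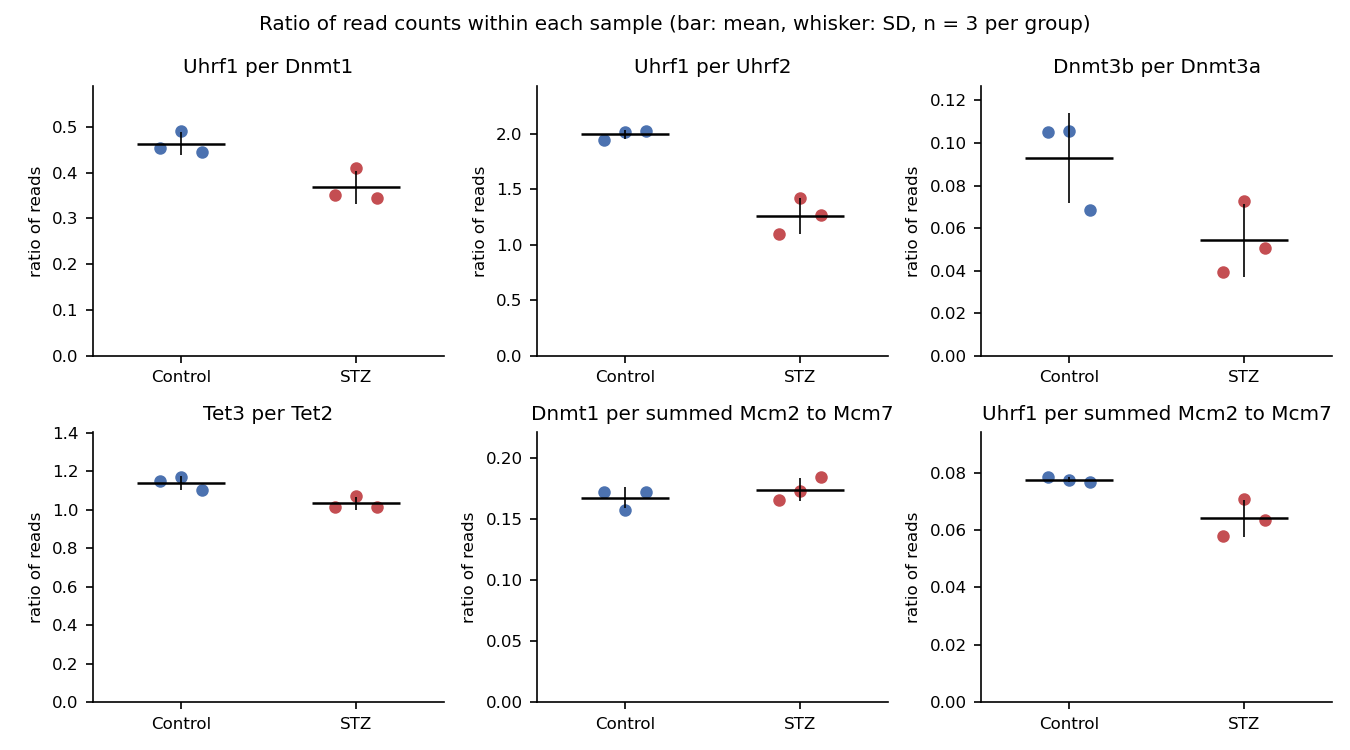
Ratio of read counts within each sample (vertical axis, from 0) for 6 pairs of genes in the 3 Control and 3 STZ samples; points are samples, bars are means and whiskers are SD. Uhrf1 is lower in STZ relative to Dnmt1, to Uhrf2 and to the summed Mcm genes, while Dnmt1 relative to the Mcm genes overlaps between groups, from 0.158 to 0.173 in Control and from 0.166 to 0.184 in STZ.

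Of the de novo methyltransferases, Dnmt3b was lower in STZ and Dnmt3a did not pass the test. Dnmt3b was sparse, with 32, 32 and 29 reads in the Control samples and 16, 24 and 20 in the STZ samples. In CPM these were 3.02, 2.91 and 2.26 in Control and 1.16, 2.09 and 1.33 in STZ, so the groups were separate by a narrow gap between Control replicate 3 and STZ replicate 2. The mean fell from 2.73 ± 0.409 to 1.53 ± 0.491 CPM (SD, n = 3), to 56.0% of Control, with a log2 fold change of -0.85 (standard error 0.26, 95% confidence interval -1.39 to -0.32, adjusted p = 0.00652). The interval includes changes on both sides of the fold-change threshold. Without STZ replicate 1 the adjusted p-value was 0.0521 (log2 fold change -0.69). Counting alone gives a coefficient of variation of 19.8% at its mean of 25.5 reads. The span of Dnmt3b overlaps Dnmt3b-ps1, annotated as a pseudogene, in GRCr8, so its level is uncertain to the extent that the pair shares reads.

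Dnmt3a had 28.7, 27.5 and 33.0 CPM in Control and 29.6, 28.6 and 26.4 in STZ. The groups overlapped and the highest and the lowest sample were Control replicate 3 and STZ replicate 3. Its log2 fold change was -0.088 (standard error 0.077, 95% confidence interval -0.24 to 0.068, adjusted p = 0.356), so a fall up to the lower bound of that interval could not be told from no change at this depth. Dnmt3b had 0.0930 ± 0.0212 reads per Dnmt3a read in Control and 0.0543 ± 0.0171 in STZ (SD, n = 3), and these ratios overlapped. Dnmt3l, the catalytically inactive partner of these enzymes, had between 0 and 3 reads per sample and was not tested.

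The TET dioxygenases were represented mainly by Tet2 and Tet3. Tet2 had 37.4, 34.7 and 36.3 CPM in Control and 36.0, 34.1 and 36.2 in STZ. The groups overlapped, with a log2 fold change of -0.026 (95% confidence interval -0.16 to 0.11, standard error 0.066, adjusted p = 0.769). Tet3 had 43.0, 40.6 and 40.0 CPM in Control and 36.6, 36.7 and 36.8 in STZ. Every STZ sample was below every Control sample, and the STZ samples differed by a coefficient of variation of 0.276%, less than the 4.56% of counting error at 482 reads per sample. The mean fell from 41.2 ± 1.59 to 36.7 ± 0.101 CPM (SD, n = 3), to 89.0% of Control, a log2 fold change of -0.17 (standard error 0.064, 95% confidence interval -0.29 to -0.037, adjusted p = 0.0276). This call was lost with DESeq2 (adjusted p = 0.089) and without Control replicate 1 (0.116), STZ replicate 1 (0.0676), STZ replicate 2 (0.055) or STZ replicate 3 (0.0597). Tet3 reads per Tet2 read were 1.14 ± 0.0344 in Control and 1.04 ± 0.0337 in STZ (SD, n = 3), with no overlap.

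Tet1, the founding enzyme of the family and known from embryonic stem cells, was close to the limit of detection. It had 16, 12 and 6 reads in the Control samples and 11, 1 and 5 in the STZ samples, a mean of 1.02 ± 0.524 CPM in Control and 0.407 ± 0.362 in STZ (SD, n = 3). The groups overlapped, as STZ replicate 1 exceeded Control replicate 3. Fitted with no filter, where 31.9% of 18930 genes had an adjusted p-value under 0.05, Tet1 had an adjusted p-value of 0.0346 at a log2 fold change of -1.22 ± 0.48 (standard error). In that fit the call was lost without Control replicate 1 (adjusted p = 0.311), Control replicate 2 (0.096), STZ replicate 2 (0.239) or STZ replicate 3 (0.128), so the level of Tet1 cannot be said to differ at this depth. In the GRCr8 annotation the spans of Dnmt3a, Tet1 and Tet3 each overlap a long non-coding RNA, and those of Dnmt1 and Tet2 overlap no other gene.

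**Figure D3:**
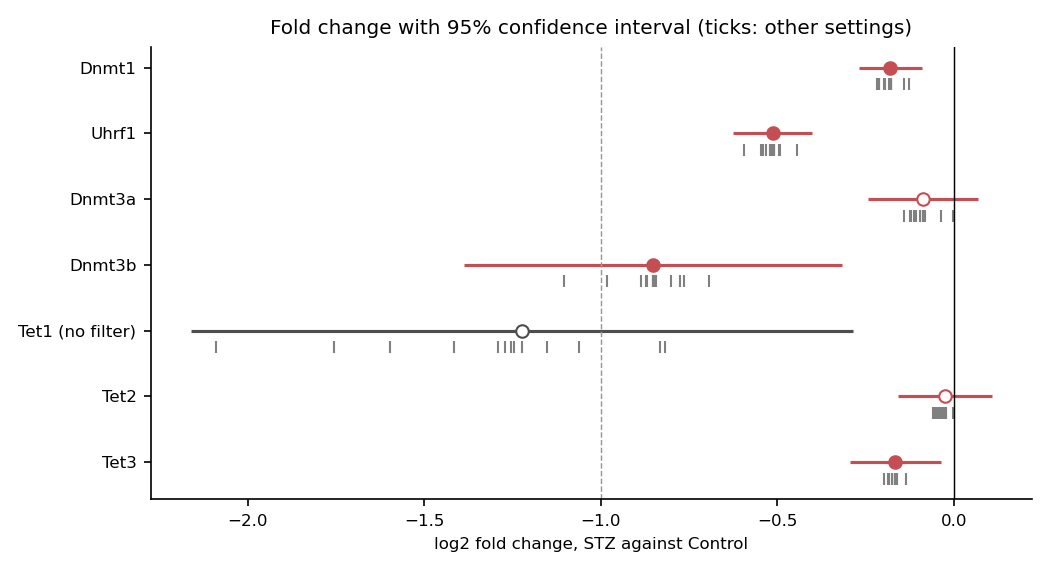
Log2 fold change, STZ against Control (horizontal axis), of the 7 genes; circles are the reported values, filled at an adjusted p-value under 0.05 among genes that passed the filter, lines are 95% confidence intervals and grey ticks are the values under other settings. The dashed line marks a log2 fold change of -1. The ticks of all 7 genes lie left of 0. The intervals of Uhrf1, Dnmt1, Dnmt3b, Tet3 and Tet1 lie left of 0, and those of Dnmt3a and Tet2 include 0. Tet2 is centred near 0, and Tet1, fitted with no filter, has the widest interval.

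The genes whose log2 CPM followed each family member most closely over the 6 samples, among 9831 named genes averaging 50 or more normalized counts, are given as a description. The correlation does not depend on the size of a change, and the genes so named could differ from the family member in log2 fold change. For Uhrf1 they were Pgls, Fkbp4 and Hspa2 (Pearson's r from 0.993 to 0.995 over 6 samples), and for Dnmt1 they were Lins1, Utp18 and Prkar2a (0.988 to 0.995). Those for Tet3 were Poll, Nfix and Exosc4 (0.997 to 0.998), and those for Dnmt3b were Crtapl1, Fbxo31 and MGC116121 (0.992 to 0.993). Dnmt3a was followed by Creld2, Mief1 and Rpp40 (0.960 to 0.988), and Tet2 by Itpr1, Nf1 and Ybey (0.974 to 0.984).

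Other genes of the pathway were described by 9 lists, of which 89 genes were tested, 17 higher and 39 lower in STZ. Over all genes tested 25.9% were higher and 25.1% lower, and the counts of each list are to be read against these shares. The median log2 fold change of the 89 genes was -0.10. Partners of maintenance methylation were mostly lower, with 6 of 10 lower, 2 higher and a median of -0.18. Pcna, the sliding clamp to which Dnmt1 binds at the fork, had 267, 289 and 278 CPM in Control and 171, 162 and 168 in STZ, a log2 fold change of -0.73 (adjusted p = 3.7e-19). Cdca7, which recruits the chromatin remodeler Hells, had -0.74 (adjusted p = 6.66e-12), and Hells itself, needed to open nucleosomal DNA for methylation, had -0.40 (adjusted p = 1.72e-06). Cdca7 and Pcna thus fell further than Dnmt1 or Uhrf1 in point estimate; the differences between genes were not tested.

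Among partners of de novo methylation, 6 of 11 were lower and 0 were higher (0 also by DESeq2), with a median of -0.15. The corepressor Trim28, which brings methylation to transposons and imprinted regions, had a log2 fold change of -0.44 (adjusted p = 1.02e-13). The histone methyltransferases Ehmt1 and Ehmt2 had -0.30 and -0.23 (adjusted p = 1.43e-06 and 5.45e-06). The reads of Trim28 may not be fully separated from those of Chmp2a, whose span overlaps it. In the list of readers of methylated CpG 2 of 8 genes were lower, near the background share, and 1 was higher, with a median of -0.0015. Binding of methylated CpG by their products was not measured. Mbd3, in the list but known mainly as a subunit of the NuRD complex, was lower at -0.49 (adjusted p = 1.89e-12). The glycosylase Mbd4 was also lower at -0.33 (adjusted p = 0.0398), whereas Zbtb4 was higher at 0.23 (adjusted p = 0.00131). For Mbd4 and Zbtb4 the groups overlapped in CPM. The span of Zbtb4 overlaps Chrnb1 and Slc35g3, so their reads may not be fully separated either.

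In the list of oxidised base excision, 4 of 10 genes were lower and 2 higher. Whether these genes acted on bases made by TET enzymes was not tested. The scaffold Xrcc1 rose by a log2 fold change of 0.75 (adjusted p = 7.62e-16), while Parp1, which senses strand breaks, and the ligase Lig3 had -0.42 and -0.33 (adjusted p = 2.75e-11 and 4.26e-07). Of TET cofactors and partners 6 of 11 were lower and 1 was higher, with a median of -0.19. Ogt, the O-GlcNAc transferase that binds TET proteins, had -0.52 (adjusted p = 1.14e-12). Idh1, a source of 2-oxoglutarate, had -0.57 (adjusted p = 5.55e-14), and Hcfc1, a target of Ogt, had -0.47 (adjusted p = 1.18e-12).

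The methyl donor cycle was split, with 4 of 10 genes higher and 4 lower. Mat1a, the liver-type synthetase of S-adenosylmethionine, had 23 to 37 reads in Control and 69 to 87 in STZ, a log2 fold change of 1.15 (adjusted p = 3.51e-06). Nnmt, which uses S-adenosylmethionine to methylate nicotinamide, had 1.14 (adjusted p = 6.4e-07). Ahcy removes the inhibitory product of methyltransferases that use S-adenosylmethionine. Ahcy fell from 296 ± 13.2 to 206 ± 4.56 CPM (SD, n = 3), -0.52 on the log2 scale (adjusted p = 1.37e-14). Mtr, the methionine synthase, had -0.55 (adjusted p = 3.5e-08). Mat2a and Mat2b, the subunits of the widely expressed synthetase, had 0.16 and 0.28 (adjusted p = 0.00257 and 0.000104) and were named after their values were seen.

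Of 20 S-phase genes, 9 were lower and 2 higher, with a median of -0.11. Mcm6 and Mcm7 had log2 fold changes of -0.50 and -0.45 (adjusted p = 1.11e-13 and 3.66e-12), whereas Tyms, the thymidylate synthase, had 0.52 (adjusted p = 6.37e-14). The S-phase genes thus did not share 1 direction, and Uhrf1 at -0.51 lay just below the lowest of these 20, Mcm6. Pcna, listed with the maintenance partners and not here, was lower still at -0.73.

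Genes known for expression that depends on DNA methylation were also described. Whether it does so in these cells was not tested. There were counts for 14 imprinted genes, of which 8 were tested, with 4 higher and 2 lower. The regulator Plagl1 fell from 210 ± 4.07 to 112 ± 5.79 CPM and the growth inhibitor Grb10 from 120 ± 2.39 to 67.3 ± 2.87 CPM (SD, n = 3), log2 fold changes of -0.90 and -0.84 (adjusted p = 2.94e-21 and 1.04e-18). Phlda2 rose from 6 to 13 reads in Control to 31 to 53 in STZ, a log2 fold change of 2.05 (adjusted p = 1.79e-07). Of 9 germline genes in the table that were listed as silenced by promoter methylation in somatic cells, 8 never exceeded 6 reads and were not tested. The remaining one, Tex101, was not silent in Control, where it had 47 to 71 reads. Its level was 5.04 ± 1.40 CPM in Control and 9.34 ± 1.11 in STZ (SD, n = 3), a log2 fold change of 0.90 (adjusted p = 7.82e-06). DNA methylation itself was not measured in these samples.

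**Figure D4:**
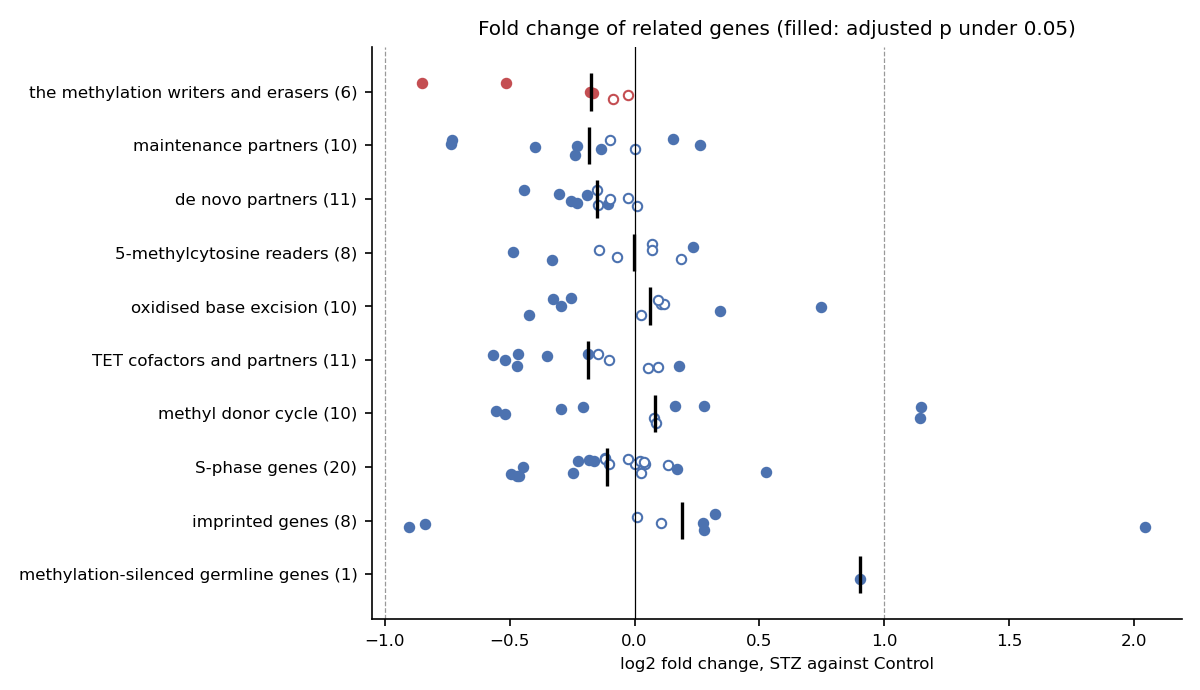
Log2 fold change, STZ against Control (horizontal axis), of each tested gene (circles; filled at an adjusted p-value under 0.05) in the writer and eraser family (red) and in 9 lists of related genes (blue), with the number tested in brackets and the median as a vertical bar. Dashed lines mark log2 fold changes of -1 and 1. Only Phlda2, Mat1a and Nnmt pass the fold-change threshold among the genes drawn. The medians of the lists lie between -0.19 and 0.19, apart from the germline list at 0.90, where Tex101 was the only gene tested.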

How the data were processed

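RNA of 6 samples of NRK-52E cells was sequenced. The authors prepared stranded mRNA libraries, used STAR 2.7.10a to map single-end reads to Rnor6, and deposited raw counts of uniquely mapped reads per gene from featureCounts. The annotation release and the strand setting are not given in the sources used here. Columns were matched to samples by their titles.

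Counts were filtered (filterByExpr), scaled (TMM) and tested over all genes with edgeR 4.0.16 (quasi-likelihood test, Benjamini-Hochberg adjustment) in R 4.3.3. A gene was called when its adjusted p-value was below 0.05; as a second threshold, its log2 fold change had to exceed 1 in size. Standard errors were taken as |log2 fold change| / √F. Total counts of 10430924 to 15191349 limit the precision for genes with few reads. Alternatives used limma 3.58.1 (voom), DESeq2 1.42.0, other filters and scalings, thinned counts, a replicate block and each sample left out. The fit was tested on simulated counts.

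The 7 genes and the lists were chosen with earlier results of these data known. The genes named are the family, the 3 smallest p-values of each list, list genes past both thresholds and the 3 most similar genes of each member. With 3 samples against 3, an exact permutation test cannot go below 0.1, so none is given. Sequences are from RefSeq (GRCr8).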

Additional observations from a re-analysis of the deposited data

How the results depend on the processing

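The number of the 7 genes with an adjusted p-value under 0.05, 4 as reported, was 3 to 5 under the other filters, scalings and tests, with thinned counts, with the replicate block and with each sample left out. All of those called were lower in STZ in each of these fits. The number past both thresholds, 0 as reported, was 1 with no filter, where that gene was Tet1, and 0 to 1 when each sample was left out (1 without Control replicate 3 or STZ replicate 1, where Tet1 passed the filter, and without STZ replicate 2, where Dnmt3b had -1.11). The number of related genes called, 56 as reported, was 51 to 59. The log2 fold changes of Uhrf1 (-0.60 to -0.44) and Dnmt1 (-0.22 to -0.13) passed the test in all 15 alternatives, that of Dnmt3b in 14 of 15, and that of Tet3 in 10 of 15. Dnmt3a and Tet2 passed in none of 15. Tet1 passed in 7 of 13 alternatives fitted with no filter, which were chosen after seeing the data; the cause was not tested. No direction was reversed. The ratio of Uhrf1 to Dnmt1 reads differed by -0.41 to -0.29 on the log2 scale with one sample left out.

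Replicate numbers run from 1 to 3 in both groups. Across 10341 genes, deviations from the group means correlated at 0.0339, -0.0337 and 0.105 for samples of the same number, and not every sample correlated best with its own number, so nothing but the number was taken as shared. Under the replicate block 4 of the 7 genes and 57 related genes passed the adjusted p-value, and 0 of the 7 genes passed both thresholds. The block ended the call of Tet1 with no filter (adjusted p = 0.0529) and no other call among the 7 genes.

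Counting error limits Dnmt3b and Tet1, with 25.5 and 8.5 reads per sample on average. No pair of samples within a group was close enough to be 1 library deposited again: chi-square over its degrees of freedom was 1.85 or more.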
